A study of Homo sapiens with 30 samples.

Results

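The comparison described here sets the 2 arrays labelled replicative 792 h against the 2 arrays labelled replicative 624 h, over all 52329 features of the array. These 4 arrays were chosen by their labels alone and are part of 30 arrays in 15 groups of 2. The cells are WI-38, a long-established diploid fibroblast line from human lung, and their total RNA was hybridised to Affymetrix HTA 2.0 arrays. Both groups carry the same labels apart from the hour: cells kept in 3% oxygen with 5% carbon dioxide and then taken to proliferative exhaustion in 21% oxygen, with no transgene and no drug named. The same holds for the labels 144 h, 264 h, 432 h, 1008 h, 1368 h and 2112 h, whereas the replicative T0 label names no 21% oxygen. The remaining 12 arrays are WI-38 cells with a doxycycline-inducible RAF oncogene, sampled before and during 100 ng/ml doxycycline. All groups come from 1 cell line of 1 origin. Nothing in the labels says that the partner arrays of a replicative group came from separate cultures, so p-values may measure technical spread only.

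Replicative exhaustion ends in senescence, in which cells stop dividing for good. Senescent fibroblasts typically lose the transcripts of DNA replication and mitosis and of the nuclear lamina protein lamin B1, gain inhibitors of cyclin-dependent kinases (CDKs), and secrete interleukins, chemokines, growth factors and proteases, together called the senescence-associated secretory phenotype (SASP). Interleukin-1 on such cells acts through NF-kB, and the ERK MAP kinase cascade acts through ETS and AP-1 transcription factors. AP-1 is a dimer of FOS and JUN family proteins that binds a palindromic DNA element in many SASP genes.

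The intensities were deposited by the authors in processed form, on what was read as a log2 scale, and rounded to 0.1, so that a difference of 1 is a 2-fold change. The partner arrays correlated over features at 0.9944 (792 h) and 0.9963 (624 h), and any 792 h array correlated with any 624 h array at 0.9609 to 0.9629. The hour on the label and the state of the transcriptome did not run in 1 order along the series. On the first principal component of the 30 arrays (64.2% of the variance), 12 arrays lay on one side of zero, namely those labelled T0 in the replicative course and its hours from 624 h onwards. The other 18, all RAF arrays and the replicative ones labelled 144 h, 264 h and 432 h, lay on the other side. The 624 h arrays lay at 25.2 and 26.3 and the 792 h arrays at 82.9 and 79.9, on the same side. The mean level of the mitotic genes, as log2 units from their mean over all 30 arrays, was highest for T0 (1.88), 624 h (1.47) and 2112 h (1.40). It was 0.21 for 144 h and -0.32 for 1368 h, and lowest for 264 h (-0.84), 432 h (-0.96), 792 h (-1.12) and 1008 h (-1.15). Exhausted cultures would be low in these genes, and the last label was among the high ones. Whether each label names the right cells was not tested. Every direction below is a direction between 2 labels, not a course in time.

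At the label 792 h, IL1A, IL1B, CCL20, CXCL8, MMP3 and the CDK inhibitor gene CDKN2B stood far above the label 624 h. Most genes of mitosis and of the contractile apparatus, and the proteoglycan genes DCN and LUM, stood below it. With limma, 16283 of 52329 features (31.1%) passed the test at a Benjamini-Hochberg adjusted p under 0.05. Of all features, 8283 (15.8%) passed higher at 792 h and 8000 (15.3%) passed lower. With a change of at least 2-fold as well, 2245 of all features (4.29%) passed, 1031 higher and 1214 lower. The large changes were uneven: 247 features rose and 201 fell at least 4-fold, while 37 rose and 0 fell at least 16-fold. Over all features the 792 h and 624 h labels differed with a standard deviation (SD) of 0.46 log2 units, against 0.18 between the 792 h partners and 0.15 between the 624 h partners. The median difference was 0. In 26605 features (50.8%) the 2 groups did not overlap. Bright features were called more often, 55.7% of those with a mean level of at least 6.78 against 16.7% of those up to 4.43. In bulk RNA, fewer cells of a kind and less RNA per cell cannot be told apart. Of 19912 genes with a feature of their own name, 8320 (41.8%) passed: 4400 (22.1%) rose and 3920 (19.7%) fell, and these shares are the background for the gene lists below.

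**Figure D1:**
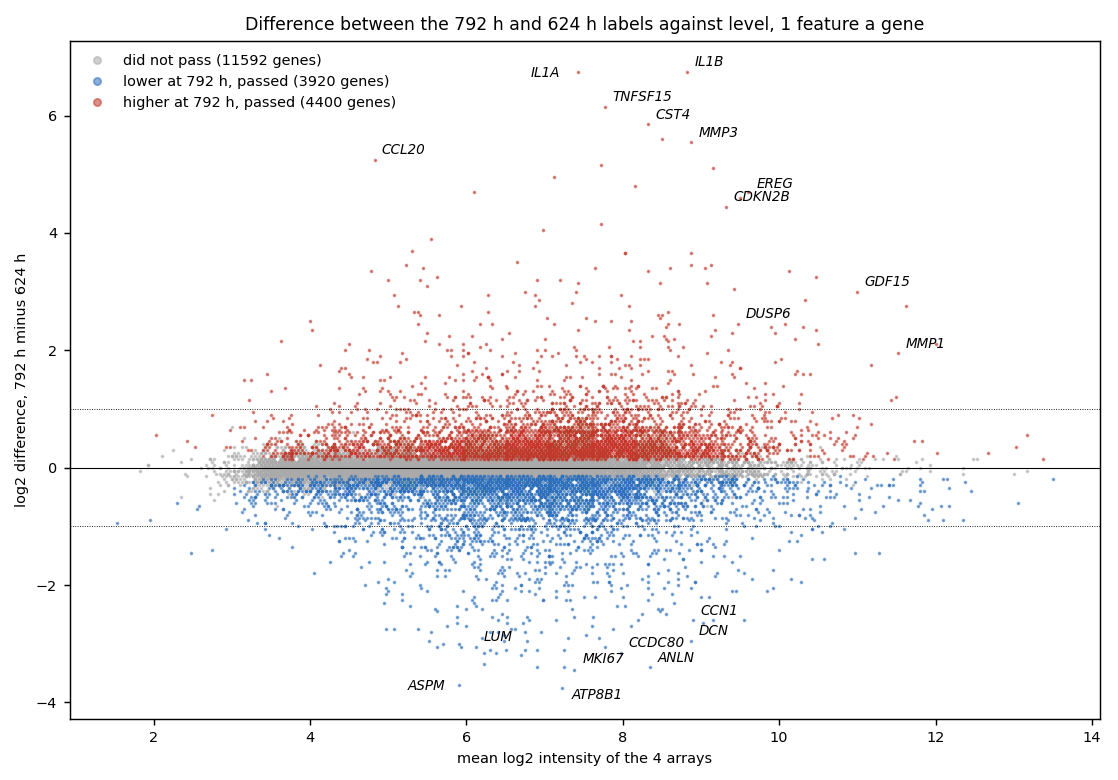
Difference between the 792 h and 624 h labels (log2 units, vertical axis) against the mean log2 intensity of the 4 arrays (horizontal axis), 1 point for each of 19912 genes, with dotted lines at a 2-fold change. Red points are the 4400 genes that passed higher at 792 h and blue points the 3920 that passed lower. The rises reach 6.75 and the falls -3.75.

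The 15 largest rises were mostly secreted proteins. IL1A, which encodes the membrane-bound and alarmin form of interleukin-1, read 4.0 and 4.1 at 624 h and 10.8 on both arrays at 792 h, a difference of 6.75 (SE 0.072, adjusted p = 4.94e-14, limma) or 108-fold. IL1B, its secreted relative, went from 5.5 and 5.4 to 12.2 on both arrays, also by 6.75 (SE 0.088). In both genes the arrays of a label lay within 0.1 of each other, and the labels were far apart. TNFSF15, a TNF family cytokine, read 4.7 on both 624 h arrays and 10.9 and 10.8 at 792 h, a 71.0-fold rise. The rest of these secreted proteins were CST4 (5.85) and CST1 (5.10), inhibitors of cysteine proteases, MMP3 (5.55), the protease stromelysin-1, the chemokines CCL20 (5.25) and CXCL8 (5.15), the EGF receptor ligand EREG (4.70) and the Kunitz-type protease inhibitor TFPI2 (4.60). Of the others, SLC6A15 (5.60) is a transporter of neutral amino acids. PTGS2 (4.95) is the inducible cyclooxygenase. LCE1F (4.80) belongs to the late cornified envelope proteins of skin, DCSTAMP (4.70) is a membrane protein needed for osteoclast fusion, and CDKN2B (4.45) is the CDK4 and CDK6 inhibitor p15. The largest adjusted p among the 15 rises and 15 falls was 1.15e-09 (limma), for PTGS2.

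The 15 largest falls were mostly mitotic. MKI67, the proliferation antigen Ki-67, read 9.1 on both 624 h arrays and 5.7 and 5.6 at 792 h, a fall by 3.45 (SE 0.083, adjusted p = 2.81e-11, limma). ASPM, a spindle pole protein, went from 7.7 and 7.8 to 4.1 and 4.0. ANLN and DIAPH3 act in cytokinesis, TOP2A is topoisomerase II alpha, KIF11, CENPE and CENPF serve the spindle and kinetochore, NCAPG is a condensin subunit, and NUSAP1, DLGAP5 and SHCBP1 are spindle and midbody proteins. Their differences ran from -3.40 (ANLN and TOP2A) to -3.10 (CENPE, DIAPH3, DLGAP5 and NUSAP1). Of the 15, 3 are not mitotic genes. ATP8B1, a phospholipid flippase, had the largest fall of all, from 9.1 on both arrays to 5.4 and 5.3 (difference -3.75). TNFSF4, the ligand of OX40, read 8.6 on both 624 h arrays and 5.0 and 5.4 at 792 h, the widest spread between partners of the 30 genes. CCDC80, a secreted matrix protein, fell by 3.15.

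**Figure D2:**
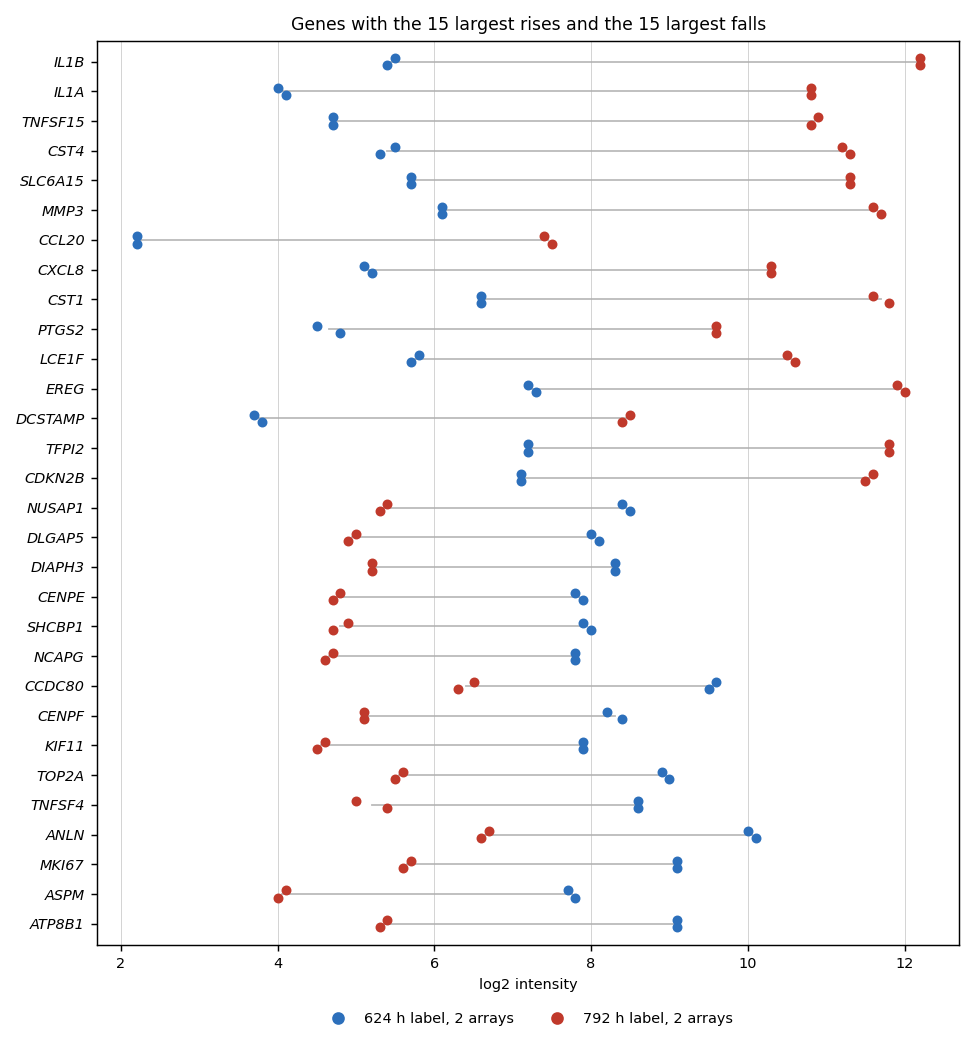
Log2 intensity (horizontal axis) on each of the 4 arrays for the genes with the 15 largest rises and the 15 largest falls, with 624 h in blue, 792 h in red and a grey line joining the group means. The labels do not overlap in any of the 30 genes because this was a condition for choosing them. Over all features, the groups did not overlap in 50.8%.

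The promoters of the genes that moved most are shown because AP-1 is the factor named in the title of the series. From the RefSeq table (GRCh38.p14), windows of 250 bases before to 50 after a transcript start were searched on both strands for the AP-1 element TGANTCA, which reads alike on both strands apart from its middle base. It was in a window of 9.37% of the table's 27305 genes, in 4 of the 10 genes with a window among the 15 rises and in 0 of 14 among the 15 falls. The 4 rises are printed below as the 150 bases before the start, 5′ to 3′ in the direction of the gene, with the element in capitals.
IL1A, chr2:112784401-112784550, minus strand: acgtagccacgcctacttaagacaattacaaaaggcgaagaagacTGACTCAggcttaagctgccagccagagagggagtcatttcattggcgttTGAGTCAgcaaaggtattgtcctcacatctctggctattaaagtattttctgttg
TNFSF15, chr9:114792531-114792680, minus strand: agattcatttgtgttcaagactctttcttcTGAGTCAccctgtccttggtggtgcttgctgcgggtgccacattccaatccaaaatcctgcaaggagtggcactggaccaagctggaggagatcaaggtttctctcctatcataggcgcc
CXCL8, chr4:73740419-73740568, plus strand: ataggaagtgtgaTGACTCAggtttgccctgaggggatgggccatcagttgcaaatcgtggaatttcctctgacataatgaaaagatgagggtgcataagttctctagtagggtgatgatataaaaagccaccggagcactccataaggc
TFPI2, chr7:93890754-93890903, minus strand: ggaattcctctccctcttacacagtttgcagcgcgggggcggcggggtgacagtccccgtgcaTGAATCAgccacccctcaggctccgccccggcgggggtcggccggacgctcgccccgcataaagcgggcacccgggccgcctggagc
The first bases of these elements lie 105 and 55 bases before the printed start in IL1A. They lie 120, 137 and 87 bases before it in TNFSF15, CXCL8 and TFPI2. Where a gene had several starts, the one with the most elements in the 150 bases was printed. From the other IL1A start, the same elements begin 12 bases before it and at base 39 after it. The element was not limited to rises. Among the other named genes, F3, FST, SERPINB7 and EGFR hold it and fell. MMP10, PLAUR, DDIT3, CD68, SLAMF8 and SLITRK6 hold it and rose. Of the SASP cytokine list, 4 of 12 genes with a window held it (33.33%). For the chemokine list it was 1 of 11 (9.09%) and for the NF-kB list 1 of 15 (6.67%). A match describes letters in a window and shows neither binding nor a cause.

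Another element was common among the largest falls. The CHR, searched as TTTGAA on both strands and known as a docking site of the DREAM and MuvB complexes in mitotic genes, was in a window of 18.17% of all 27305 genes, in 10 of 14 of the largest falls and in 1 of 10 of the largest rises. Of the G2 and mitosis list, 16 of 23 genes with a window held it (69.57%), and of the S-phase list 0 of 25. The CHR search was added after the falls had been seen. The element was not limited to falls: EGR1, SPRY2, LEF1, ACP3, CXCR4 and NOTCH1 hold it and rose. Of the TGF-beta list, with 7 rises and 6 falls, 9 of 19 genes with a window held it. Examples from the falls are printed below, again 150 bases before the start with the element in capitals.
MKI67, chr10:128126424-128126573, minus strand: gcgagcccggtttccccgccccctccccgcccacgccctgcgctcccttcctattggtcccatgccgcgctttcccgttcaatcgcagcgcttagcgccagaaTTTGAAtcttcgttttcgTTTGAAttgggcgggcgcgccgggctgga
KIF11, chr10:92592980-92593129, plus strand: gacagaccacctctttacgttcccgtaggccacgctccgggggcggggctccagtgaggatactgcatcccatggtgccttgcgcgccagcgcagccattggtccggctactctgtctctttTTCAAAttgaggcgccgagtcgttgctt
MKI67 holds the element at 47 and 29 bases before the start, and KIF11 holds it on the opposite strand at 28 bases. The last base of the second element in MKI67 is also the first of an inverted CCAAT box. CCAAT boxes (CCAAT on either strand) were in a window of 39.72% of all genes and of 18 of 23 genes of the G2 and mitosis list. They too were searched for after the falls had been seen. They did not mark the falls: 9 of 14 of the largest falls and 7 of 10 of the largest rises held one. Of the cholesterol and fatty acid list, where more genes rose than fell, 11 of 13 with a window held one.

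Of 6 measured genes of the RAS, RAF and MAP kinase cascade, 1 rose and 0 fell, with a median difference of -0.05. In the fit of the 4 arrays alone 2 rose, and with all 30 arrays, after quantile normalization, with a trended robust variance or without 792 h replicate 2, 1 fell. The riser was MAP2K1, the kinase MEK1, at 8.3 on both 624 h arrays and 8.9 and 8.8 at 792 h (0.55). ARAF read 8.5 and 8.6 at 624 h and 8.5 on both arrays at 792 h, and did not pass (adjusted p = 0.596, limma). Among 13 feedback inhibitors of ERK signalling, 9 rose and 2 fell (median 0.70). DUSP6, the phosphatase that inactivates ERK in the cytoplasm, read 8.2 and 8.3 at 624 h and 10.7 on both arrays at 792 h, a rise of 2.45 (SE 0.055). SPRY2 and SPRY4, Sprouty inhibitors of receptor signalling to RAS, rose by 2.25 and 1.80, and the nuclear phosphatase DUSP4 by 1.90. The 2 that fell were DUSP10 (-1.40), which prefers the stress kinases p38 and JNK, and DUSP7 (-0.20), both named after their values were seen. Of 13 ERK-driven transcription factors and early genes, 9 rose and 2 fell (median 0.55). IER3, an early response gene, rose by 2.40, the zinc finger factor EGR1 by 1.80, PHLDA1 by 1.60 and the ETS factor ETV4 by 0.95.

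The AP-1 subunits did not move together. Of 17 AP-1 and related bZIP genes, 6 rose and 4 fell (median 0.15). JUNB went from 7.8 and 7.9 at 624 h to 10.4 and 10.5 at 792 h, a rise of 2.60 (SE 0.10, adjusted p = 1.7e-09, limma). FOS rose by 2.00, from 5.9 and 6.1 to 8.1 and 7.9, and FOSB by 1.20, from 5.8 and 6.1 to 7.3 and 7.0. FOSL1, which encodes the AP-1 subunit FRA1, moved the other way, from 9.2 and 9.4 to 7.9 on both arrays (-1.40, SE 0.083). For JUN the arrays read 8.1 on both 624 h arrays and 8.5 and 8.3 at 792 h, which did not pass (0.30, adjusted p = 0.053, limma). ATF3, a stress-induced partner, read 6.2 and 6.3 against 6.2 and 6.0 (adjusted p = 0.613, limma). In a fit of the 4 arrays alone the risers came to 3 and FOSB no longer passed (adjusted p = 0.056, limma), nor did it without 792 h replicate 1 or 624 h replicate 1.

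Of 17 measured SASP cytokines and growth factors, 15 rose and 2 fell, with a median difference of 2.35. Beside IL1A, IL1B, TNFSF15 and CXCL8, the granulocyte growth factor CSF3 went from 6.6 on both arrays to 9.0 and 9.2 (2.50). GDF15, a stress cytokine of the TGF-beta family, read 9.5 on both 624 h arrays and 12.5 on both 792 h arrays (3.00). IL24, of the IL-10 family, rose by 2.05. IL6, a central SASP cytokine, rose less, from 5.9 and 6.1 to 7.2 and 7.4 (1.30, SE 0.12, adjusted p = 3.5e-06, limma). The 2 that fell were IL15 (-0.60) and the macrophage growth factor CSF1 (-0.35), named after their values were seen. The mean of the list, as log2 units from its mean over all 30 arrays, was -0.48 at 624 h and 2.09 at 792 h, and lay between -0.70 and 1.72 at the remaining replicative labels.

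The chemokines were mixed. Of 15, 10 rose and 1 fell, but the median difference was only 0.20. CCL20, which draws CCR6-bearing lymphocytes, went from 2.2 on both arrays to 7.4 and 7.5. Its 624 h level was very low, near its means at T0 (2.30) and 2112 h (2.25). With no background level set, the size of this rise is uncertain. CXCL1 and CXCL5, ligands of the neutrophil receptor CXCR2 like CXCL8, rose by 1.95 and 1.25, with CXCL1 at 6.8 and 7.2 on the 792 h arrays. CCL2, the monocyte attractant, was the 1 that fell, from 8.2 on both arrays to 6.6 on both (-1.60, SE 0.10). The count of risers came to 5 in the fit of the 4 arrays alone, and to between 5 and 9 when 1 array was left out, with 6 without 792 h replicate 2 and 5 without 624 h replicate 2.

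Most matrix proteases and their inhibitors rose. Of 11 metalloproteinases and tissue inhibitors, 8 rose and 1 fell (median 0.75). MMP3 read 6.1 on both 624 h arrays and 11.6 and 11.7 at 792 h (5.55, SE 0.14). MMP10, the second stromelysin, rose by 2.25 and MMP1, the interstitial collagenase, by 1.95, from 10.6 and 10.5 to 12.5 on both arrays. TIMP1, which inhibits these enzymes, rose by 2.05. TIMP4 was the 1 that fell (-0.30, named after its value was seen), and it did not pass in the fit of all 30 arrays, in that of the 4 arrays, after quantile normalization or without any 1 of the 4 arrays.

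Of 10 plasminogen activators, coagulation regulators and serpins, 5 rose and 3 fell. THBD, the thrombin receptor thrombomodulin, went from 6.2 on both arrays to 9.8 and 9.9 (3.65), and PLAUR, the urokinase receptor, from 9.5 on both to 11.1 on both (1.60). F3, tissue factor, which starts coagulation, fell by 2.20, from 10.1 on both arrays to 7.8 and 8.0. Among 8 insulin-like growth factor (IGF) ligands and binding proteins, 2 rose and 2 fell: IGFBP1 rose by 2.45, while IGFBP5 (-0.80) and IGFBP7 (-0.70) fell. IGFBP6 passed narrowly at 0.15 (adjusted p = 0.0428, limma), and did not pass with the replicate number as a block (adjusted p = 0.0503, limma), with all 30 or only the 4 arrays, after quantile normalization, or without any 1 array but 624 h replicate 1.

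Of 6 EGF family genes, 3 rose and 1 fell. EREG, epiregulin, read 7.2 and 7.3 at 624 h and 11.9 and 12.0 at 792 h. NRG1, neuregulin-1, rose by 3.40, from 7.3 and 7.4 to 10.7 and 10.8. EGFR, the receptor that epiregulin binds, fell by 0.40, from 8.9 to 8.5 on both arrays of each label. HBEGF rose by 0.30 (adjusted p = 0.0236, limma), a call that was lost in the fit of the 4 arrays alone and without either 792 h array or 624 h replicate 1.

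**Figure D3:**
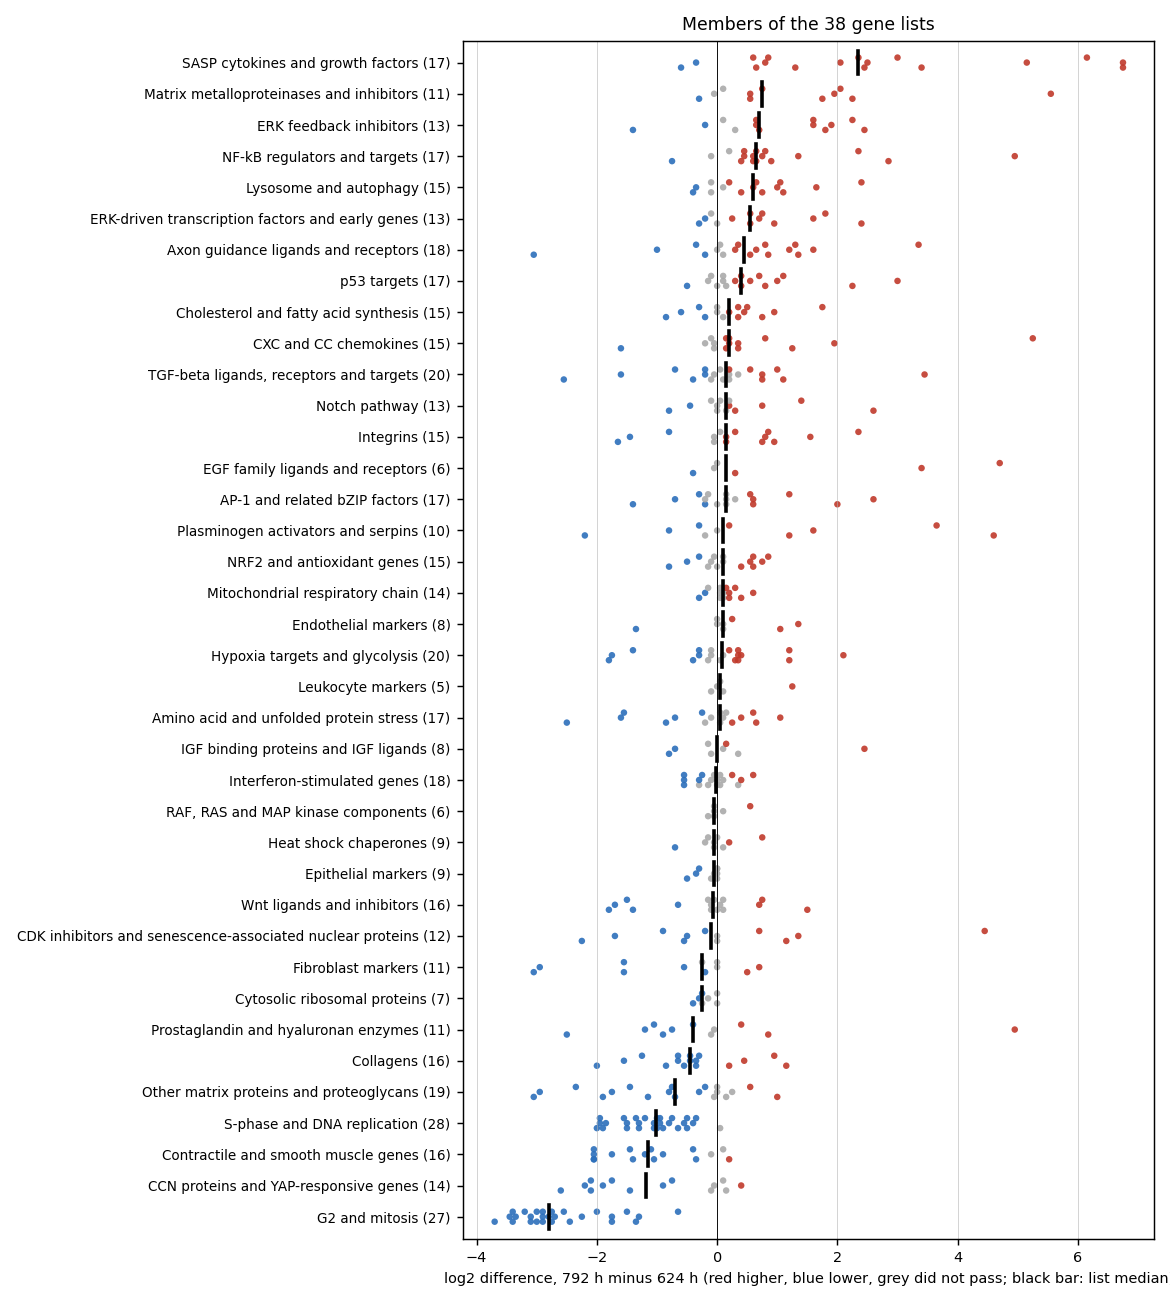
Difference between the 792 h and 624 h labels (log2 units, horizontal axis) for each measured member of the 38 gene lists, ordered by list median (black bar), with the number of measured members in brackets. Red members passed higher, blue members passed lower and grey members did not pass. The SASP cytokines have the highest median, 2.35, and the G2 and mitosis genes the lowest, -2.80.

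CDKN2B, CDKN2A and CDKN1A, the CDK inhibitor genes named here, rose by very different amounts. CDKN2B went from 7.1 on both arrays to 11.6 and 11.5 (4.45, SE 0.051). CDKN2A, the neighbouring gene of p16 and ARF, rose by 1.15, from 6.1 on both arrays to 7.3 and 7.2. CDKN1A, which encodes p21, rose by 0.70, from 9.0 on both to 9.7 on both. LMNB1, the lamin B1 gene, fell by 2.25, from 7.4 and 7.6 to 5.3 and 5.2, and HMGB2, a chromatin protein, by 1.70. HMGA2, a chromatin protein of senescence-associated foci, rose by 1.35. In all, 4 of the 12 genes of this list rose and 6 fell (median -0.10). Of the 6 that fell, only LMNB1 and HMGB2 are named here, so the rises above do not stand for CDK inhibitors as a class. Along the other labels, CDKN2B was between 7.1 and 7.4 on the arrays of 144 h, 264 h and 432 h, at 8.9 on both T0 arrays, and at 11.6 on both 1008 h arrays.

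DNA replication and mitosis fell as lists. Of 28 S-phase genes, 0 rose and 27 fell (median -1.02), and of 27 genes of G2 and mitosis 0 rose and 27 fell (median -2.80, range -3.70 to -0.65). The S-phase falls were the smaller ones: RRM2, the ribonucleotide reductase subunit, fell by 2.00, the cyclin CCNE2 and the thymidine kinase TK1 by 1.95 each, and the replication factor MCM10 by 1.90. CCNE1 was the 1 S-phase gene that did not pass (0.05, named after its value was seen). Against the other labels, the MKI67 level of 9.1 at 624 h stood beside 9.4 and 9.2 at T0 and 8.8 on both 2112 h arrays. The 792 h level of 5.7 and 5.6 stood beside 5.9 on both 432 h arrays and 5.6 on both 1008 h arrays. These levels are given as a description, with no test.

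**Figure D4:**
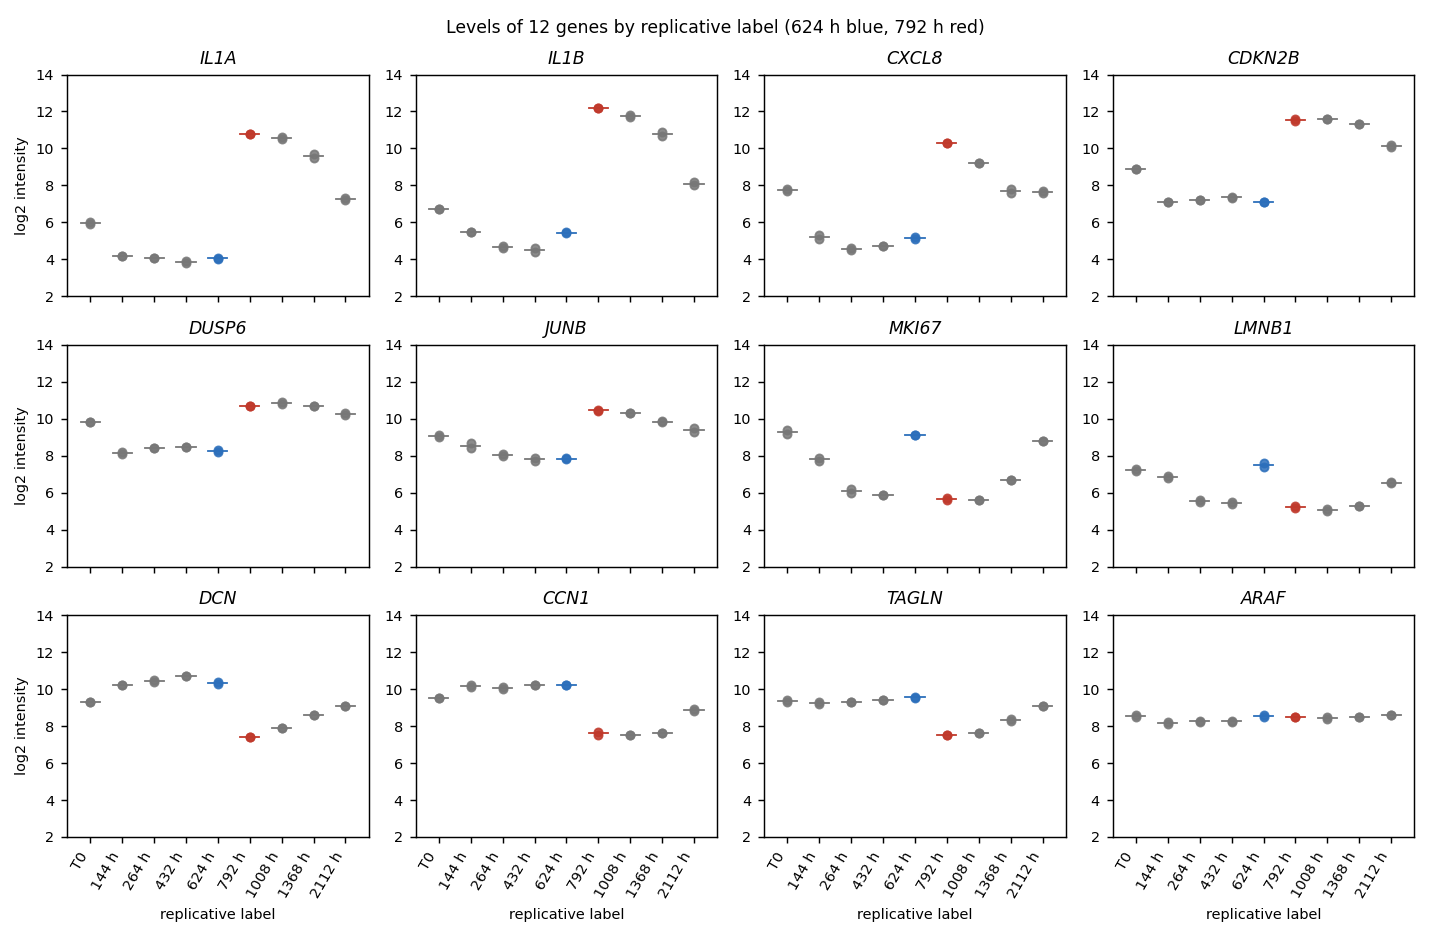
Log2 intensity (vertical axis, same range in all panels) of 12 genes on the 18 replicative arrays by label, with 624 h in blue, 792 h in red, other labels in grey and a bar at each group mean. IL1A, IL1B, CXCL8 and JUNB are highest at 792 h, MKI67 is near 9 at T0, 624 h and 2112 h and at most 6.7 on the group means of 264 h, 432 h, 792 h, 1008 h and 1368 h, and ARAF hardly moves.

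Of 17 p53 targets, 10 rose and 1 fell (median 0.40). Beside GDF15 and CDKN1A, the kinase PLK3 rose by 2.25, from 7.4 on both arrays to 9.6 and 9.7, TP53INP1 by 1.10, and RRM2B, the p53-induced ribonucleotide reductase subunit, by 1.0. Of 17 NF-kB regulators and targets, 14 rose and 1 fell (median 0.65). ICAM1, an adhesion molecule for leukocytes, went from 8.9 on both arrays to 11.7 and 11.8 (2.85). IRAK2, a kinase of interleukin-1 receptor signalling, rose by 2.35 and NFKBIA, the inhibitor that NF-kB itself induces, by 1.35, from 9.0 on both to 10.3 and 10.4. The 1 that fell was the adhesion molecule VCAM1 (-0.75, named after its value was seen). Interferon-stimulated genes showed small differences: of 18, 3 rose and 5 fell (median -0.03), from CXCL10 at 0.60 to IFI44, IFIT2 and IFIT3 at -0.55. In the fit of the 4 arrays alone 1 rose and 1 fell, and none of these 4 genes passed.

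The matrix changed in both directions, with decorin and lumican among its largest falls. Of 16 collagen genes, 4 rose and 12 fell (median -0.45). COL5A2 fell by 2.00, COL1A2, a chain of type I collagen, by 1.55, from 11.3 and 11.4 to 9.8 on both arrays, and COL12A1 by 1.25, while COL6A3 rose by 1.15, from 10.9 and 10.8 to 12.0 on both. COL1A1, the other chain of type I collagen, fell by 0.55. Of 19 other matrix genes, 2 rose and 12 fell (median -0.70). DCN, the proteoglycan decorin, went from 10.4 and 10.3 to 7.4 on both arrays (-2.95, SE 0.047), and LUM, lumican, from 7.7 and 7.6 to 4.6 on both (-3.05). The fibrillin FBN2 fell by 2.35 and the crosslinking enzyme LOX by 1.90. The 2 that rose were the proteoglycans VCAN (1.0) and BGN (0.55), named after their values were seen. Of 11 prostaglandin and hyaluronan genes, 3 rose and 6 fell. PTGS2 rose from 4.5 and 4.8 to 9.6 on both arrays, while CEMIP, which degrades hyaluronan, fell by 2.50, HAS2, which makes it, by 1.20, and the prostaglandin receptor PTGER4 by 1.05, a call that was lost in the fit of the 4 arrays alone (adjusted p = 0.065, limma).

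Contractile genes fell together. Of 16, 1 rose and 13 fell (median -1.15). TAGLN, the actin-binding protein transgelin, read 9.5 and 9.6 at 624 h and 7.5 on both arrays at 792 h (-2.05, SE 0.055). Calponins CNN1 and CNN2 and the smooth muscle actin ACTG2 fell by the same amount, ACTG2 from 7.3 and 7.4 to 5.2 and 5.4. The 1 riser was SMTN, smoothelin (0.20, named after its value was seen), whose call was lost in the fit of the 4 arrays alone, without 792 h replicate 1 and without 624 h replicate 1. The CArG box, the element bound by serum response factor, is printed for ACTG2 because its promoter holds a pair of them, in capitals.
ACTG2, chr2:73892858-73893007, plus strand: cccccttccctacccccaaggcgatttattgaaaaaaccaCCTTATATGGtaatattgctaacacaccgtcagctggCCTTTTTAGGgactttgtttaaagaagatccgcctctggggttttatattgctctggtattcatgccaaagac
Their first bases lie 110 and 73 bases before the start. A CArG box was in a window of 1.6% of all 27305 genes and of 4 of the 11 contractile genes with a window, a search added after these falls had been seen. The box was not limited to falls. Of the ERK-driven transcription factors and early genes, most of which rose, 2 of 8 with a window held it. EGR1, CXCR4 and LEF1 hold it and rose. Of 14 CCN proteins and YAP-responsive genes, 1 rose and 9 fell (median -1.18). CCN1 (CYR61), a matricellular protein, went from 10.2 on both arrays to 7.7 and 7.5 (-2.60), and CCN2 (CTGF) from 11.7 on both to 10.2 and 10.3 (-1.45). AJUBA, a LIM protein that restrains the LATS kinases, and the transmembrane protein CRIM1 fell by 2.10 each. The 1 riser was CCN3 (0.40), named after its value was seen.

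Signalling ligands and receptors split by gene. Of 20 TGF-beta family genes, 7 rose and 6 fell (median 0.15): the ligand BMP2 rose by 3.45, from 7.4 on both arrays to 10.9 and 10.8, while TGFB2 fell by 2.55 and FST, the activin antagonist follistatin, by 1.60. SKIL, a repressor of SMAD proteins, rose by 1.10. Of 15 integrin chains, 9 rose and 3 fell. ITGB3 rose by 2.35 and ITGB8 by 1.55, and ITGA6 and ITGA8 fell by 1.65 and 1.45. Of 13 Notch pathway genes, 5 rose and 2 fell. HEY1 and HES1, target repressors of Notch, rose by 2.60 and 1.40, NOTCH1 by 0.75, and the ligand DLL4 fell by 0.80. Leaving out 792 h replicate 1 left 3 risers on the Notch list. Of 18 axon guidance genes, 11 rose and 4 fell (median 0.45). The semaphorin SEMA7A rose by 3.35, from 8.4 and 8.5 to 11.8 on both arrays, and the semaphorin SEMA3C by 1.35. The neuropilin NRP2 rose by 1.60, and the netrin NTN4 fell by 3.05, from 9.4 and 9.2 to 6.3 and 6.2. Of 16 Wnt genes, 3 rose and 5 fell (median -0.08), with the receptor FZD7 (-1.80) and the inhibitors DKK1 (-1.70) and SFRP1 (-1.50) lower and the transcription factor LEF1 (1.50) higher.

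Among metabolic and stress lists, the lysosomal genes moved most in 1 direction. Of 15 lysosome and autophagy genes, 10 rose and 2 fell (median 0.60). The cathepsin gene CTSL read 8.7 on both 624 h arrays and 11.1 on both 792 h arrays (2.40), NPC1, the lysosomal cholesterol exporter, rose by 1.65, CTSB by 1.10 and CTSK by 1.05. Of 17 amino acid and unfolded protein stress genes, 5 rose and 6 fell, with serine and asparagine synthesis enzymes among the falls: PSAT1 went from 9.8 on both arrays to 7.3 on both (-2.50), ASNS fell by 1.60 and PHGDH by 1.55, while the stress factor DDIT3 rose by 1.05. Of 20 hypoxia and glycolysis genes, 9 rose and 6 fell. The glycoprotein hormones of the stanniocalcin family went apart: STC1 rose by 2.10 and STC2 fell by 1.80. The glucose transporter SLC2A1 fell by 1.75 and the peptide hormone ADM by 1.40. Of 15 cholesterol and fatty acid genes, 8 rose and 4 fell (median 0.20). INSIG1, which holds the sterol-sensing complex in the endoplasmic reticulum, rose by 1.75, MSMO1 by 0.95 and IDI1 by 0.75, and the desaturase SCD fell by 0.85, with 5 risers in the fit of the 4 arrays alone. Of 15 antioxidant genes, 6 rose and 3 fell, led by AKR1C2 (0.85) and the cystine transporter SLC7A11 (-0.80).

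Heat shock, ribosomal and respiratory chain genes differed little. Of 9 heat shock chaperones, 2 rose and 1 fell, HSPH1 by 0.75, HSPE1 by 0.20 and HSPB1 by -0.70, and leaving out any 1 of the 4 arrays left 1 riser. The count of falls was 2 with all 30 arrays, with the replicate block or with a trended robust variance, and 3 after quantile normalization. Of 7 ribosomal protein genes, 0 rose and 3 fell, by at most 0.40 (RPS3). In the fit of the 4 arrays alone 1 fell, since RPS6 and RPS14 no longer passed, and RPS14 also lost its call without any 1 of the 4 arrays. Of 14 respiratory chain genes, 6 rose and 2 fell (median 0.10), from NDUFV2 at 0.60 to NDUFA9 at -0.30, with 1 fall when any 1 of the 4 arrays was left out.

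The cell type markers were checked against the label of a lung fibroblast. VIM (11.9 on both 624 h arrays, 11.7 on both 792 h arrays), FN1 (11.8 on all 4) and PDGFRA (9.4 on all 4) were high in both groups. Not every fibroblast marker was high. S100A4 read 6.0 and 5.9 at 624 h and 5.8 and 5.6 at 792 h, and LUM read 4.6 on both 792 h arrays. Of 11 fibroblast markers, 2 rose and 6 fell, with DCN, LUM, COL1A2 and THY1 (-1.55) the largest falls and PDGFRB (0.70) and FAP (0.50) the risers. The epithelial markers EPCAM (3.9 and 3.8 at both labels) and CDH1 (4.8 to 4.9) stayed low and did not pass. Others were not low: KRT18 read 9.0 on both 624 h arrays and 8.5 on both 792 h arrays. KRT8 read 8.0 and 8.1 at 624 h and 7.7 and 7.8 at 792 h. Of 9 epithelial markers, 0 rose and 3 fell, KRT18 (-0.50), MUC1 (-0.35) and KRT8 (-0.30), and KRT8 did not pass as the mean of its 2 features, in the fit of the 4 arrays alone, or without 792 h replicate 1 or 624 h replicate 2. The endothelial markers CDH5 (5.3 on all 4), VWF (5.6 to 5.7) and CLDN5 (6.8 on all 4) did not pass. Of 8 endothelial markers, 3 rose and 1 fell: PECAM1 went from 3.6 and 3.8 to 5.1 and 5.0, and TIE1 rose by 1.05 and KDR by 0.25. TEK fell by 1.35, from 8.1 on both arrays to 6.7 and 6.8. The call of KDR was lost in the fit of the 4 arrays alone and without 792 h replicate 1. Of 5 leukocyte markers, 1 rose and 0 fell. CD68, which encodes a lysosomal membrane protein, rose by 1.25, from 9.6 and 9.7 to 10.9 on both arrays. CD3E, CD14, ITGAM and HLA-DRA did not pass, at differences of -0.10 to 0.10. Without scanner files no background level could be set for these probes. The part of any marker in the other results was not tested.

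**Figure D5:**
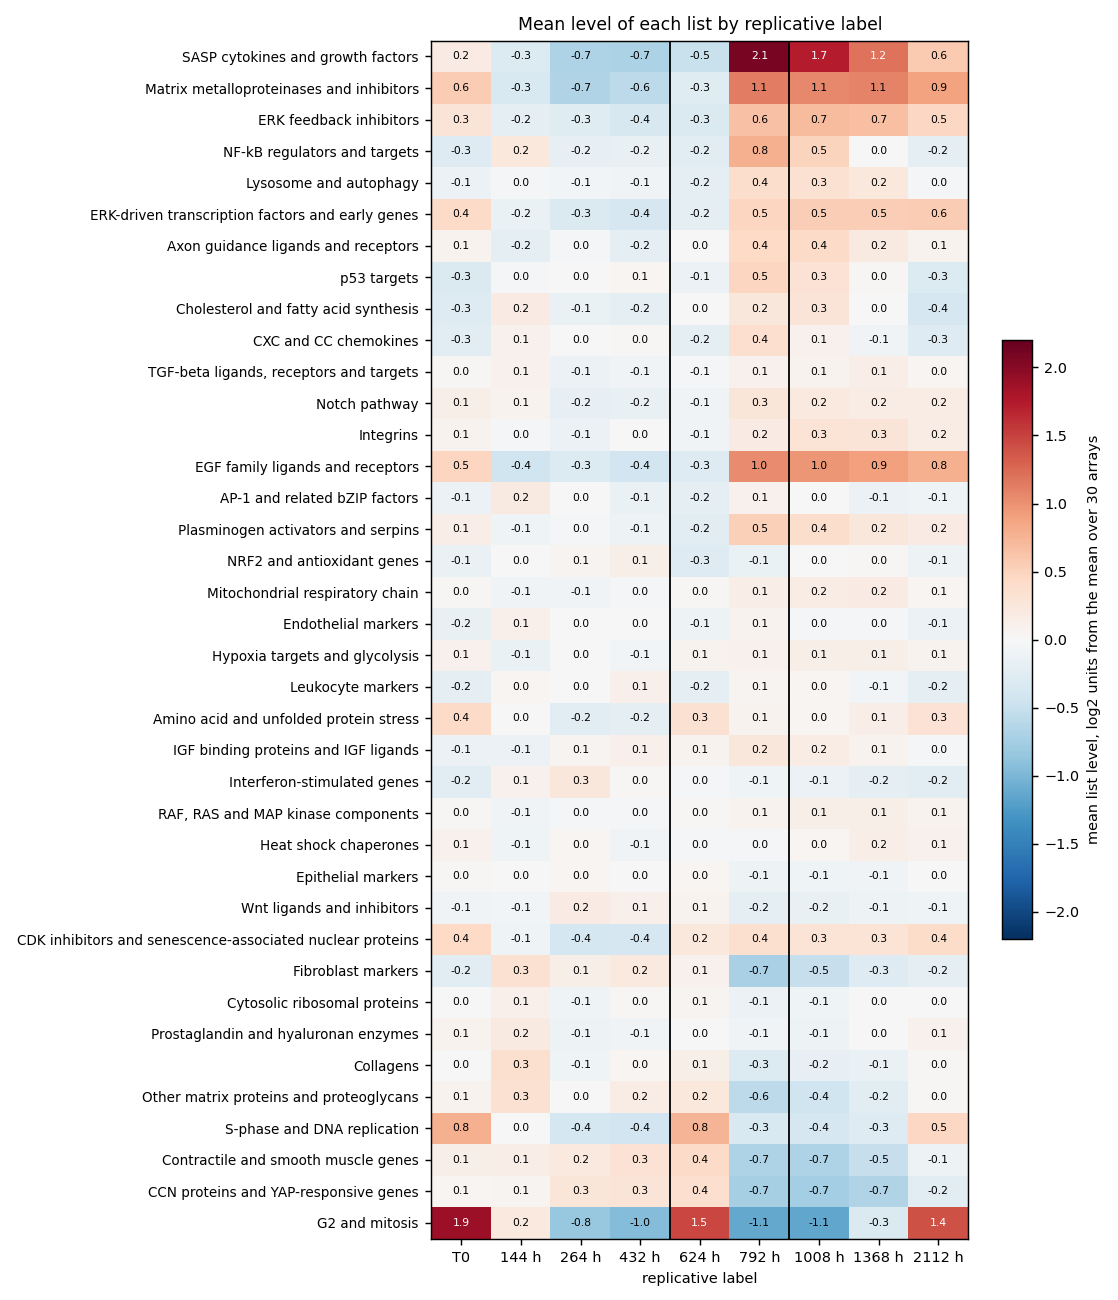
Mean level of each list at the 9 replicative labels, as log2 units from the mean over all 30 arrays (colour and printed value), with vertical lines at both edges of the 624 h and 792 h columns. The SASP cytokine list stands at -0.5 at 624 h and 2.1 at 792 h and the G2 and mitosis list at 1.5 and -1.1, and at 1008 h they stand at 1.7 and -1.1.

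The next label, 1008 h, differed far less from 792 h. With limma, 1327 of 52329 features (2.54%) passed, 614 higher at 1008 h (1.17%) and 713 lower (1.36%). Any 792 h array correlated with any 1008 h array at 0.9927 to 0.9931. Without 1 array the count was lower, at 464 without 1008 h replicate 1, 519 without 1008 h replicate 2, 606 without 792 h replicate 1 and 547 without 792 h replicate 2, and it was 3826 when the 4 arrays were fitted alone. Both steps use the 792 h arrays, so that an error in these arrays would push the 2 differences of a gene in opposite directions. The values are therefore given side by side only. Here and below, the word then follows the hours on the labels and not a course in time. Among the genes that passed in both steps, 285 were up and then down, 122 up and then up, 176 down and then up, and 55 down and then down.

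Of the genes up and then down, 6 are named for the largest second step, and several are cytokines. CCL20 rose by 5.25 and then fell by 2.20, to a mean of 5.25 at 1008 h. CXCR4, a chemokine receptor, rose by 1.90 and fell by 1.50, CSF3 rose by 2.50 and fell by 1.40, and CXCL1 rose by 1.95 and fell by 1.35. IL24 and SLAMF8, a surface receptor of the SLAM family, rose by 2.05 and 2.10 and then fell by 1.25 and 1.20. At the second step 2 of the SASP cytokine genes rose and 8 fell (median -0.30), and of the NF-kB list 0 rose and 6 fell, beside a background of 3.72% of genes called in either direction. IL6 fell by 0.95 after its rise of 1.30. IL1A stood at a mean of 10.55 at 1008 h against 10.80 at 792 h and did not pass (adjusted p = 0.104, limma).

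Others had the same direction in both steps between labels. ACP3, an acid phosphatase, read 3.8 on both 624 h arrays and 7.0 on both 792 h arrays and rose by a further 1.15 at 1008 h. ANGPT2, angiopoietin-2, rose by 2.65 and 1.15, the matrix protease ADAMTS3 by 1.95 and 1.05, and the neuronal membrane protein SLITRK6 by 3.90 and 0.80. IFNA1 (0.90 and 0.90) and COLEC10 (0.45 and 0.75) were the others named for this pattern. IFNA1 read only 2.4 and 2.2 at 624 h, a very low level. Of the genes down and then up, ITGA6 fell by 1.65 and rose by 0.90, the phospholipid-binding protein ANXA1 fell by 1.80 and rose by 0.85, and SLC16A4, IGF2BP3, RFTN2 and SAMD9 fell by 0.50 to 1.0 and rose by 0.80 to 0.85. The first-step calls of IFNA1 and SAMD9 were lost in the fit of the 4 arrays alone. The steps down and then down were small. HIF1A-AS2, an antisense transcript, fell by 1.20 and 0.60, and NOG, the BMP antagonist noggin, by 0.50 and 0.60. SERPINB7, SNORD116-15, NPTX1 and TRANK1 had first steps of -0.25 to -0.80 and second steps of -0.50 to -0.55. The first-step calls of SNORD116-15, NPTX1 and TRANK1 were lost in the fit of the 4 arrays alone. They were also lost without 1 array, for TRANK1 624 h replicate 1, for SNORD116-15 any but 792 h replicate 2 and for NPTX1 any but 624 h replicate 1, and for NPTX1 with all 30 arrays. Of 27 mitotic genes, 0 rose and 1 fell, with a median difference of -0.05.

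A later step of the labels ran differently. The difference between 792 h and 624 h was tested against that between 2112 h and 1008 h, which uses none of the same arrays. The label 1368 h lies between 1008 h and 2112 h. The mitotic levels above had already set 624 h beside 2112 h and 792 h beside 1008 h, so opposite directions here are not separate evidence. The 2 steps differed in 16170 of 52329 features (30.9%), with limma. Features that moved only in the first step count here too, and 31.1% passed in that step alone. IL1A, at 6.75 in the first step, stood 3.30 lower at 2112 h than at 1008 h (difference of the steps 10.05, SE 0.10, adjusted p = 4.05e-14, limma). MKI67 read 3.20 higher at 2112 h than at 1008 h against its fall by 3.45 in the first step. CDKN2B stood 1.45 lower at 2112 h than at 1008 h and DCN 1.20 higher, each again opposite to its first step. For the G2 and mitosis list all 27 members differed between the steps (median -5.60). For the SASP cytokines 14 of 17 differed with the first step the higher, and 1 with it the lower. ARAF did not (difference -0.20, adjusted p = 0.114, limma).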

How the data were processed

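The authors' deposited values for 52329 features (transcript clusters) on 30 arrays run from -1.6 to 14 and were therefore taken as log2 intensities. How they were summarised and normalized, and their log base, is not given in the sources used here. Every array has a median of 5.5. No scanner files were used, and precision is limited by the number of arrays. The platform annotation gives 1 gene symbol to 21055 features, several to 1406 and none to 29868. Where a gene has several features, its brightest one over the 30 arrays stands for it.

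Groups came from the labels. Limma 3.58.1 (R 4.3.3, with the package data.table at version 1.17.8) was fitted to the 18 replicative arrays (9 groups, 9 residual degrees of freedom) as deposited, two-sided, with Benjamini-Hochberg adjustment over all 52329 features in each of 3 contrasts. SE is limma's moderated standard error. On simulated data (52329 features, 200 changed) the fit of the 792 h and 624 h contrast recovered 62.5% of changes of 0.5, 97.5% of changes of 1 and 100% of changes of 2, with 8 false calls. The simulated noise was normal and independent between features, and far fewer features were changed than the 31.1% called in the data. These rates and the count of false calls therefore do not carry over to the real calls.

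The members, the 38 gene lists (528 of 605 genes measured) and the tests were chosen with earlier results of these data known. Named genes are the 15 largest called rises and 15 largest called falls with groups that do not overlap, up to 4 called members of each list by size, fixed senescence, AP-1 and ERK genes and cell type markers, and up to 6 genes of each pattern over both steps. Alternatives were all 30 arrays, only the arrays compared, a replicate block, a filter on dim features, quantile normalization, a trended robust variance, each array left out and the mean of a gene's features. The design text lists fewer replicative hours than the labels, which were followed.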

Additional observations from a re-analysis of the deposited data

Results flagged for a closer look

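The step between 624 h and 792 h was flagged because it differed, by a test of the difference itself, from the step between 1008 h and 2112 h in 16170 features. The 4 groups involved share no array. The count includes features that moved only in the first step. The cause was not tested.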

How the results depend on the processing

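The count of 16283 features between 792 h and 624 h was 16363 with all 30 arrays, 11247 with the 4 arrays alone, 12753 of 26302 features without dim features, 15887 after quantile normalization and 16424 with a trended robust variance, and 12865 to 14181 with 1 array left out. Requiring a 2-fold change left 2245. The share of higher calls stayed between 49.7% and 51.9% over these fits, and was 45.9% with the 2-fold limit. The count between 1008 h and 792 h was 1327 and rested on single arrays: it was 464 to 606 with 1 array left out and 3826 with the 4 arrays alone, and 1113 to 1618 otherwise. The count for the difference of the steps, 16170, was 12936 of 26302 features without dim features, 15349 to 16258 in the other fits without the block, and 13970 to 15239 with 1 array left out. Whether the replicate numbers pair the arrays is not stated in the labels. The partner differences of 792 h and 624 h correlated over features at 0.13, and pairs of the 9 groups at -0.28 to 0.31. These correlations cannot exclude a pairing. With the replicate block the 3 counts were 16356, 1400 and 16353. Of 183 called named genes, 0 reversed under any alternative; 18 lost the call with the 4 arrays alone, 6 to 10 with 1 array left out, 2 with all 30 arrays (IGFBP6 and NPTX1), 1 each with the block and after quantile normalization (IGFBP6), and 1 with the mean of its features (KRT8). The cause was not tested, and fewer arrays leave fewer degrees of freedom. Rounding to 0.1 limits what small differences can show.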

Other observations

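No contrast above includes the RAF-labelled arrays, which entered only the principal components, the means over 30 arrays and an alternative fit. Their levels are given as values, with no test. IL1A read 3.7 to 4.4 on the 12 RAF arrays, near its 624 h level of 4.0 and 4.1 and far from 10.8 at 792 h. The SASP cytokine list stood between -0.68 and -0.55 at the 6 RAF labels, as log2 units from its mean over all 30 arrays, and the ERK feedback inhibitors between -0.37 and -0.19. The G2 and mitosis list was high in the arrays labelled RAF 12 h (1.44) and 96 h (1.08) and low for RAF T0 (-1.39), with 24 h, 48 h and 72 h between -0.81 and -0.33.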
